A study of Homo sapiens with 8 samples.

Results

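Transcript levels of the genes on both sides of the centromere of chromosome 7, from LANCL2 on the short arm (7p11) to STAG3L4 on the long arm (7q11), were examined in NCCIT cells that had received siRNA against 1 of the TET dioxygenases. The list holds 35 neighbouring genes. Of these, 33 had a transcript cluster (a probe group of the array) annotated to that gene alone, out of 18418 genes with such a cluster, and ZNF727 and ZNF736 had none. The genes were chosen by their values on these same 8 arrays, as the run of neighbouring genes with the strongest shared decrease of the depletions against siNTC. Changes of the listed genes against siNTC are therefore given as a description, without a test, and for these genes only differences between depletions were tested.

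NCCIT is a human embryonic carcinoma line, that is, pluripotent tumour cells. The cells received a pool of siRNAs against TET1 (siTET1), TET2 (siTET2) or TET3 (siTET3), or a non-targeting siRNA (siNTC). The TET pools were used in separate experiments with the control run in parallel, so a difference between depletions cannot be told apart from one between experiments. A group held 2 arrays, which makes 8 arrays for the 4 groups, and all values are treated as log2 intensities, a scale taken from their range. The depletions were transient and partial. The TET1 transcript averaged 62.3% of its siNTC level in siTET1, TET2 averaged 54.4% in siTET2 and TET3 averaged 47.4% in siTET3. Other TETs differed from siNTC too: TET1 was at 81.4% in siTET2 and 133.7% in siTET3, TET2 at 87.9% in siTET1 and 72.4% in siTET3, and TET3 at 79.1% in siTET1 and 101.8% in siTET2. The labels do not tell whether the 2 arrays of a group came from separate cultures, and a p-value covers the array-to-array spread, which may be technical. Of 10 chosen markers of embryonic carcinoma cells 7 were measured, while POU5F1, NANOG and TDGF1 had no cluster annotated to them alone. All 7, with SOX2 the brightest, were above background in every group. Of 18 markers of other cell types 8 to 9 were above background on both arrays of a group. VIM was the brightest of these, at 11.67 in siNTC, beside a median of 11.46 for the 7. In RNA from bulk cells, fewer cells that express a gene and less RNA per cell cannot be told apart.

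The stretch joins gene groups of different kinds. Its zinc finger genes mostly belong to the KRAB family, DNA-binding repressors that recruit the co-repressor TRIM28 to chromatin and are known for silencing transposable elements in pluripotent cells. Many arose by tandem duplication in primates and differ little in sequence. Beyond them on the long arm lie unrelated genes that most cells use, among them a lysosomal hydrolase, a urea cycle enzyme, a subunit of RNA polymerase III and a ribosome maturation factor. TET enzymes oxidise 5-methylcytosine at CG sites, so the bases before the gene starts are shown first.

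Promoter sequences were read for 29 of the 35 genes from RefSeq (build GRCh38.p14). Over the 250 bases before a start, the long-arm genes from VKORC1L1 to STAG3L4 held a median of 24 CG sites (range 13 to 30, 9 genes with a sequence). The zinc finger stretch from ZNF727 to ZNF92 held 7, the short-arm genes 19 and all 27305 genes 12. For a gene with several starts the one with the most CG sites was counted. SBDS, TYW1 and GUSB, which lie in the stretch with the largest decreases, are printed with CG in capitals, 5′ to 3′ on the strand of the gene. They are taken from SBDS (chr7:66995587-66995836, minus strand, 17 CG sites), TYW1 (chr7:66996583-66996832, plus strand, 13) and GUSB (chr7:65982214-65982463, minus strand, 24). SBDS and TYW1 run away from each other, with starts 1247 bases apart.
SBDS: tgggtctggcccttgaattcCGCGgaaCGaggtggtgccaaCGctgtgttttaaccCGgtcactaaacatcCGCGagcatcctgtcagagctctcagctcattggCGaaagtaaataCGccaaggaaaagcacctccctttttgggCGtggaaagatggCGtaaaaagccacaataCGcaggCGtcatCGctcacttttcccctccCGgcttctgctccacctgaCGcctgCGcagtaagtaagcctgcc
TYW1: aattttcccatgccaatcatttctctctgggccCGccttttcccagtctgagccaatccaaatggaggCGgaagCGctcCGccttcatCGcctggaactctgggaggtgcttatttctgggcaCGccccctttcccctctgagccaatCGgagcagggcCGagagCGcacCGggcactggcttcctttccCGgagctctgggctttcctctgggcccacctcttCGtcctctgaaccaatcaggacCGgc
GUSB: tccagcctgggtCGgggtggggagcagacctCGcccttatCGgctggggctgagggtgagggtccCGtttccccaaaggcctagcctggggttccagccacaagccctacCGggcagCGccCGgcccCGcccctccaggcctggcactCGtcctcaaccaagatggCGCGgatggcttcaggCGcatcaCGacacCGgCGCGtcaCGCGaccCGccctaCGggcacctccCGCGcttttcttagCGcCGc

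A second feature was found before zinc finger genes and before no other gene of the list. The octamer ATGCAAAT, searched on both strands (reverse complement ATTTGCAT), is known as a recognition sequence of POU factors. It was chosen after these sequences had been read. It lay in the 250 bases before the start of 6 of the 12 zinc finger genes with a sequence (50%), in 0 of the 17 other genes of the list, in 4.44% of 405 genes named ZNF and in 2.03% of all 27305 genes. In each of the 6 it stood on the strand of the gene, 236 to 243 bases before the start. That is near the outer edge of the 250 bases, so a copy slightly farther from its start was not counted. How far the shares depend on this edge was not tested. The bases around it are printed with the octamer in capitals, since they show how alike these starts are. They come from ZNF479 (chr7:57132637-57132684, minus strand), ZNF680 (chr7:64563277-64563321, minus), ZNF107 (chr7:64665887-64665934, plus), ZNF138 (chr7:64794178-64794225, plus), ZNF273 (chr7:64903023-64903068, plus) and ZNF92 (chr7:65373605-65373652, plus). A match is a description of the letters and not a sign of binding.
ZNF479: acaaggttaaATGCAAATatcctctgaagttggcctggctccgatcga
ZNF680: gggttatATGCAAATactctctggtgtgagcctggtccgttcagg
ZNF107: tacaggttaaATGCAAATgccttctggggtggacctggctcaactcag
ZNF138: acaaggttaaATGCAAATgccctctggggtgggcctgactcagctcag
ZNF273: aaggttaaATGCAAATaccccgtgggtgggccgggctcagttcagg
ZNF92: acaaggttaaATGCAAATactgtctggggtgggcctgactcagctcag

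The decrease against siNTC was not spread evenly over the stretch. It was absent or small on most of the short arm, intermediate and mixed among the zinc finger genes, and near a halving of intensity from VKORC1L1 to STAG3L4. The 14 short-arm genes had a median change of -0.06 in the mean of the 3 depletions, on the log2 scale, with single genes between -0.47 and 0.28. The 8 measured genes from ZNF679 to ZNF92 had a median of -0.43 (-0.90 to 0.24). The 11 genes from VKORC1L1 to STAG3L4 had a median of -0.98 (-1.94 to -0.86), which is 50.7% of the siNTC level. All 33 genes together had a median of -0.42, beside -0.03 over all 18418 genes.

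**Figure D1:**
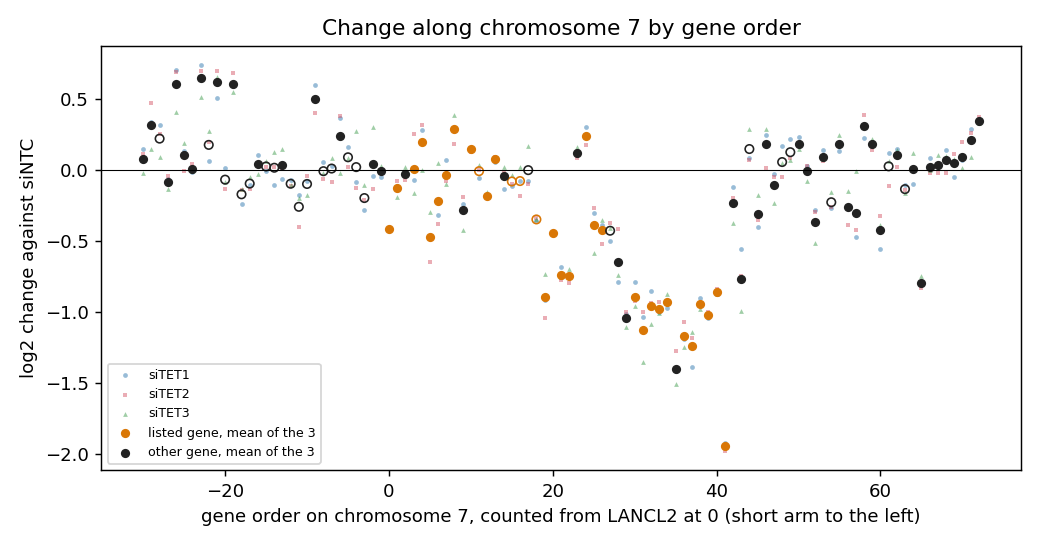
Log2 change against siNTC (vertical axis) of each measured gene around the centromere of chromosome 7, in gene order counted from LANCL2 (horizontal axis). Large points are means of the 3 depletions, orange for listed and black for other genes, open where the mean over arrays was not above background; small points are the single depletions. Changes on the listed short arm centred on -0.06, and those from VKORC1L1 to STAG3L4 on -0.98.

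Counted gene by gene, 22 of the 33 were lower on all 6 depletion arrays than on both siNTC arrays, a property of 24.5% of all genes. A further 3 (CCT6A, SUMF2 and ZNF117) were higher on all 6, as were 16% of all genes, and 8 overlapped. The rule that chose the list used this contrast, so nothing is read from these counts. All 11 genes from VKORC1L1 to STAG3L4 were among the 22, with 7 of the 8 measured genes from ZNF679 to ZNF92 and 4 of the 14 short-arm genes. Across the genome, 1.3% of genes had a mean change of -0.8 or below.

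Of the 33 genes, 28 were above background on all 8 arrays, where background is a log2 value of 5.21, the 95th percentile of 341 olfactory receptor genes. SEPTIN14, ZNF679 and ZNF716 were above it on some arrays, and PHKG1 and ZNF479 on none. The last 5 genes therefore carry little information on change.

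**Figure D2:**
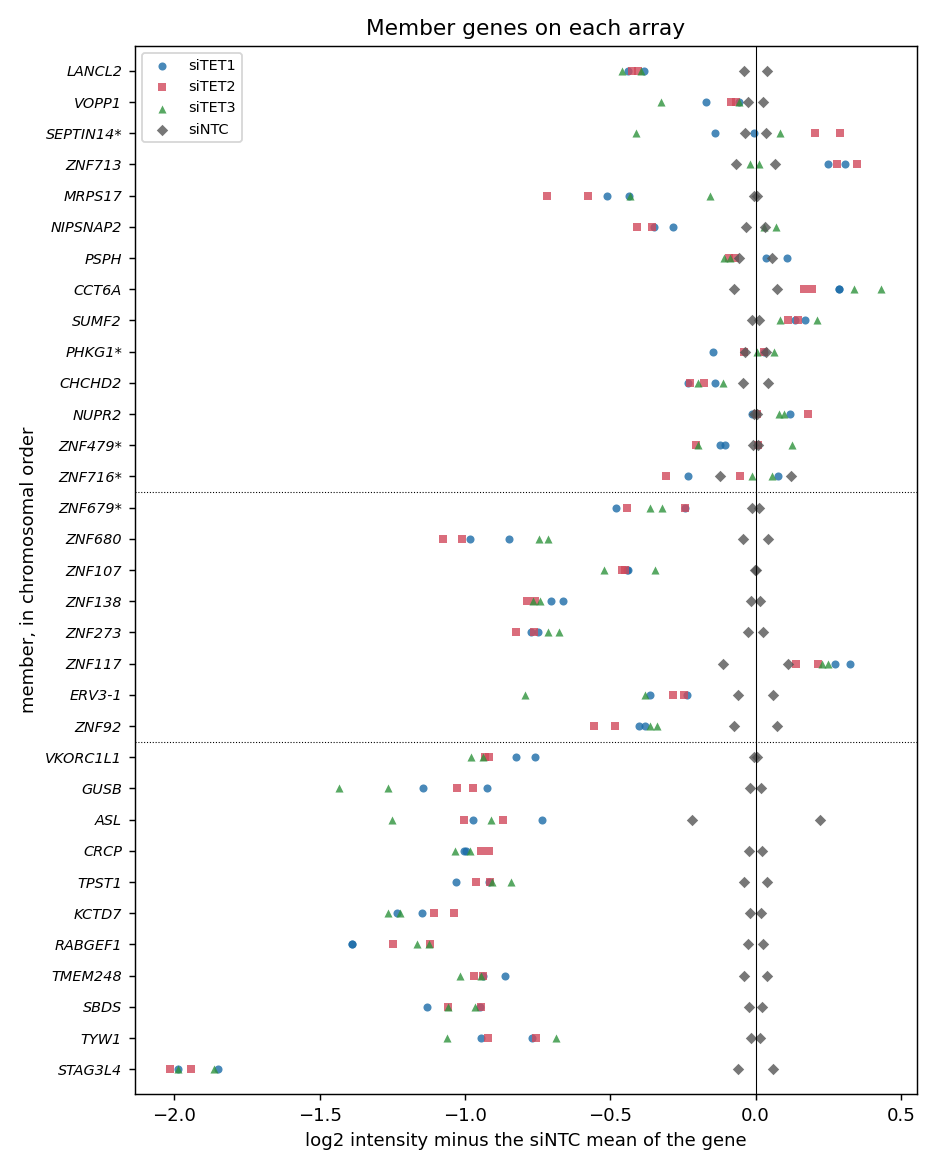
Log2 intensity of each of the 33 measured genes on each array minus the siNTC mean of that gene (horizontal axis), in chromosomal order from the short arm (top). Blue, red and green points are siTET1, siTET2 and siTET3, grey diamonds siNTC, and an asterisk marks a gene not above background on every array. Dotted lines divide the short arm, the zinc finger stretch and the stretch from VKORC1L1 to STAG3L4, where the 6 depletion arrays had medians between -1.06 and -0.95.

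From VKORC1L1 to STAG3L4 the depletions gave near-equal values. The median change of the 11 genes was -1.0 in siTET1, -0.95 in siTET2 and -1.01 in siTET3. These 3 comparisons share the same 2 siNTC arrays, and the genes were chosen for a shared decrease of the depletions. The medians of the single depletion arrays lay between -1.06 and -0.95 relative to the siNTC mean, and those of the siNTC arrays at 0.018 and -0.018. STAG3L4 lay apart from the other genes of this stretch. Without it, the changes of the 10 others had an SD over genes of 0.13.

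STAG3L4, a copy related to the cohesin gene STAG3, had the largest decrease of the list. It was at 8.29 and 8.42 in siTET1, 8.33 and 8.26 in siTET2, 8.41 and 8.29 in siTET3, against 10.21 and 10.34 in siNTC. Its mean was 26.05% of siNTC (-1.94 ± 0.056, SE of the fit, n = 2 arrays a group), and all 6 depletion arrays lay between 8.26 and 8.42. Related copies lie elsewhere on chromosome 7, and whether its probes read them was not tested.

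Among the enzymes, GUSB encodes the lysosomal beta-glucuronidase, which is also widely used as a reference gene in quantitative PCR. GUSB was at 8.08 and 8.30 in siTET1, 8.20 and 8.25 in siTET2, 7.79 and 7.96 in siTET3, against 9.25 and 9.21 in siNTC. The siTET3 arrays were the lowest, and the mean change was -1.13 ± 0.064. ASL, which releases arginine from argininosuccinate in the urea cycle, was at 7.61 and 7.37 in siTET1, 7.48 and 7.34 in siTET2, 7.09 and 7.43 in siTET3, against 8.57 and 8.13 in siNTC. Its siNTC arrays differed from each other more than those of any other listed gene (SD 0.31), and without siNTC replicate 1 or 2 the mean change of -0.96 became -0.74 or -1.18.

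VKORC1L1, a paralog of the vitamin K epoxide reductase VKORC1, was at 9.50 and 9.57 in siTET1, 9.40 and 9.41 in siTET2, 9.35 and 9.39 in siTET3, against 10.32 and 10.33 in siNTC. The mean change was -0.89 ± 0.037, and a dimmer cluster of the gene, near background, changed by -0.20. With both clusters averaged the change was -0.55. TPST1, a Golgi enzyme that sulfates tyrosines of secreted proteins, was at 8.15 and 8.26 in siTET1, 8.22 and 8.27 in siTET2, 8.27 and 8.34 in siTET3, against 9.22 and 9.14 in siNTC, a mean change of -0.93 ± 0.051. TYW1, which acts in the synthesis of wybutosine in phenylalanine tRNA, was at 6.89 and 7.07 in siTET1, 7.08 and 6.92 in siTET2, 6.77 and 7.15 in siTET3, against 7.85 and 7.82 in siNTC. All depletion arrays lay below both siNTC arrays for these 3 genes, and the siTET3 arrays of TYW1 lay farther apart than its other pairs. Its near-identical copy TYW1B, farther out on the long arm, changed by -0.31 ± 0.14 and overlapped siNTC. Whether the probes of TYW1 and TYW1B read both genes was not tested.

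Of the genes that make or mature the translation machinery, SBDS encodes a factor that releases EIF6 from the 60S ribosomal subunit and is mutated in Shwachman-Diamond syndrome. SBDS was at 10.08 and 10.26 in siTET1, 10.27 and 10.15 in siTET2, 10.15 and 10.25 in siTET3, against 11.19 and 11.23 in siNTC, and its mean was 49.4% of siNTC (-1.02 ± 0.049). CRCP, a subunit of RNA polymerase III, was at 9.03 and 9.02 in siTET1, 9.08 and 9.11 in siTET2, 8.99 and 9.04 in siTET3, against 10.05 and 10.00 in siNTC, a mean change of -0.98 ± 0.039. The 6 depletion arrays of CRCP lay between 8.99 and 9.11, all below both siNTC arrays.

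Other genes of this stretch act in trafficking or membranes or have a less settled role. KCTD7, mutated in a form of progressive myoclonic epilepsy, was at 8.28 and 8.36 in siTET1, 8.48 and 8.41 in siTET2, 8.25 and 8.29 in siTET3, against 9.53 and 9.49 in siNTC, a mean change of -1.17 ± 0.047. RABGEF1 (Rabexin-5), an exchange factor that activates RAB5 on early endosomes, was at 7.93 and 7.93 in siTET1, 8.07 and 8.20 in siTET2, 8.20 and 8.16 in siTET3, against 9.35 and 9.30 in siNTC, a mean change of -1.24 ± 0.050. RABGEF1 had the lowest values in siTET1. TMEM248, a membrane protein, was at 10.64 and 10.72 in siTET1, 10.64 and 10.61 in siTET2, 10.56 and 10.63 in siTET3, against 11.62 and 11.54 in siNTC, with a mean change of -0.94 ± 0.036 and no overlap between depletion and siNTC arrays.

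**Figure D3:**
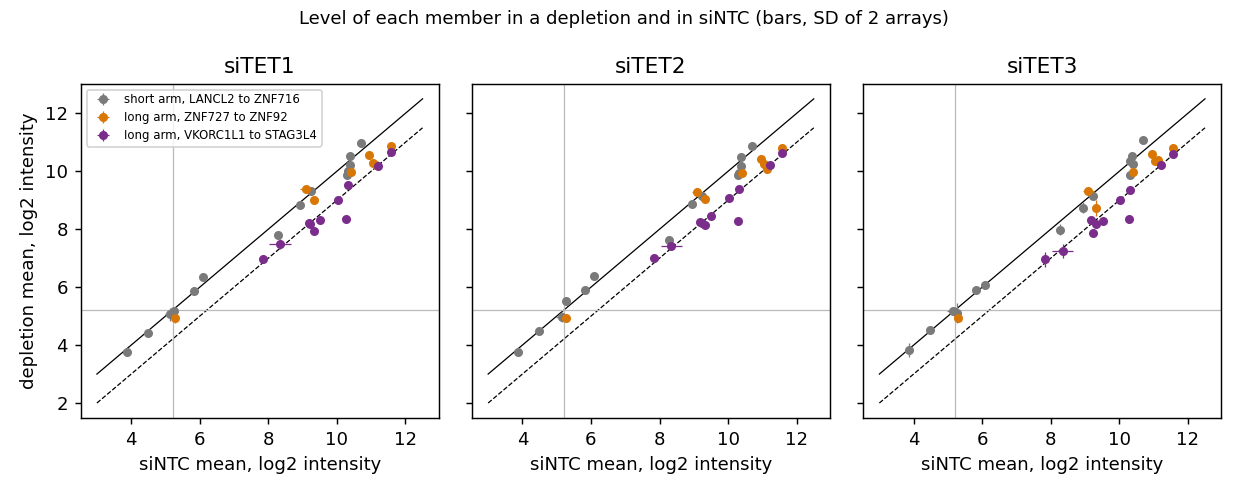
Mean log2 intensity of each of the 33 measured genes in a depletion (vertical axis) and in siNTC (horizontal axis), 1 panel per depletion, with bars for the SD of 2 arrays. The solid line marks equal levels, the dashed line a value 1 log2 unit lower in the depletion, and the thin grey lines background at 5.21; the genes from VKORC1L1 to STAG3L4 (purple) lie along the dashed line, apart from STAG3L4, which lies below it.

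The zinc finger stretch behaved less evenly. ZNF680 had its largest decrease, at 10.15 and 10.29 in siTET1, 10.13 and 10.06 in siTET2, 10.39 and 10.42 in siTET3, against 11.09 and 11.18 in siNTC, a mean change of -0.90 ± 0.041. The siTET3 arrays were above those of siTET1 and siTET2, and below siNTC. ZNF138 was at 10.86 and 10.90 in siTET1, 10.81 and 10.78 in siTET2, 10.82 and 10.80 in siTET3, against 11.58 and 11.55 in siNTC, a mean change of -0.74 ± 0.030, and its dimmer cluster changed by -0.40. ZNF273 had a mean change of -0.75 ± 0.034, near that of ZNF138. Smaller decreases were seen for ZNF107 (-0.44 ± 0.043), ZNF92 (-0.42 ± 0.040) and ERV3-1, the envelope gene of an endogenous retrovirus (-0.38 ± 0.083). ZNF679 is bounded only: its siNTC arrays lay just above background and no depletion array did, so it was at least 1.05-fold lower.

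ZNF117 differed from its neighbours. It was at 9.42 and 9.37 in siTET1, 9.31 and 9.23 in siTET2, 9.32 and 9.34 in siTET3, against 9.21 and 8.98 in siNTC, a mean change of 0.24 ± 0.054, and every depletion array lay above both siNTC arrays, the lowest at 9.23 beside a siNTC array at 9.21. Without siNTC replicate 2 the change was 0.13. The adjacent ERV3-1, with which it shares an annotated read-through transcript, was lower. The 5 long-arm genes with the octamer (ZNF680, ZNF107, ZNF138, ZNF273 and ZNF92) were all lower on every depletion array. ERV3-1 and ZNF679 without it were lower as well, and ZNF117, also without it, was higher. All 11 genes from VKORC1L1 to STAG3L4 were lower on every depletion array too, and 0 of the 9 with a sequence held the octamer. The listed genes were chosen for a shared decrease, and the octamer after the sequences had been read. Nothing is therefore read from this comparison, and a link between the octamer and the change was not tested. ZNF479 on the short arm also holds the octamer and was not above background. These zinc finger genes resemble each other, and whether a probe reads more than 1 of them was not tested.

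On the short arm, the genes of mitochondria and metabolism gave mixed values. MRPS17, a protein of the small mitochondrial ribosomal subunit, was at 7.85 and 7.77 in siTET1, 7.71 and 7.56 in siTET2, 7.85 and 8.12 in siTET3, against 8.28 and 8.29 in siNTC, a mean change of -0.47 ± 0.072, with siTET3 replicate 2 closest to siNTC. Its neighbour NIPSNAP2, a mitochondrial protein linked to mitophagy, was at 10.03 and 9.97 in siTET1, 9.91 and 9.96 in siTET2, 10.39 and 10.35 in siTET3, against 10.35 and 10.29 in siNTC. NIPSNAP2 was thus lower in siTET1 and siTET2, while siTET3 lay at and just above the siNTC arrays. CHCHD2, an intermembrane space protein mutated in familial Parkinson disease, was lower on all 6 depletion arrays, with a mean change of -0.18 ± 0.041. LANCL2, a glutathione-binding LanC-like protein at the outer end of the list, was lower on all 6 as well (-0.42 ± 0.038), and so was VOPP1, a vesicle protein, with -0.13 ± 0.063 (-0.08 without siTET3 replicate 1). PSPH, which makes serine from phosphoserine, had -0.04 ± 0.044 by its brighter cluster and 0.19 by its dimmer one, so its direction depends on the probes.

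Other short-arm genes lay at or above siNTC. CCT6A, a subunit of the TRiC chaperonin that folds actin and tubulin, was at 10.99 and 10.99 in siTET1, 10.90 and 10.87 in siTET2, 11.14 and 11.05 in siTET3, against 10.78 and 10.63 in siNTC, a mean change of 0.28 ± 0.040. SUMF2, a paralog of the sulfatase-activating enzyme SUMF1, was at 10.51 and 10.55 in siTET1, 10.52 and 10.49 in siTET2, 10.46 and 10.59 in siTET3, against 10.39 and 10.37 in siNTC, a mean change of 0.14 ± 0.038. For both genes every depletion array lay above both siNTC arrays. ZNF713 was at 6.39 and 6.33 in siTET1, 6.36 and 6.43 in siTET2, 6.07 and 6.10 in siTET3, against 6.15 and 6.02 in siNTC, higher in siTET1 and siTET2 and overlapping siNTC in siTET3. Its mean change of 0.20 ± 0.076 was 0.13 without siNTC replicate 2. NUPR2, a nuclear protein, was at 5.94 and 5.81 in siTET1, 5.82 and 6.0 in siTET2, 5.90 and 5.92 in siTET3, against 5.83 and 5.81 in siNTC. SEPTIN14, a septin known from testis, was at 5.12 and 5.25 in siTET1, 5.55 and 5.46 in siTET2, 4.85 and 5.34 in siTET3, against 5.22 and 5.29 in siNTC. The arrays of the depletions and siNTC overlapped for both of these genes. The kinase subunit PHKG1 (-0.01) and ZNF716 (-0.08) were not above background on average.

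At both ends, the change was smaller in size just outside the list than just inside. The rule that set the ends used these same values, so nothing is read from this difference. LANCL2, the first gene on the short arm, changed by -0.42, and its outer neighbour, the growth factor receptor EGFR, by -0.01 ± 0.076. VSTM2A (0.04), LINC01446 (-0.20, below background) and POM121L12 (0.02, below background) followed. STAG3L4, the last gene on the long arm, changed by -1.94 and the next measured gene, AUTS2, by -0.23 ± 0.058. Beyond it lay GALNT17, an O-linked glycosylation enzyme (-0.77 ± 0.064), CALN1 (0.15, below background) and TYW1B. The 12 measured genes outside each end had medians of 0.00 on the short arm and 0.02 on the long arm, and those above background had 0.14 (4 genes) and -0.11 (9 genes). Detected genes farther out included FIGNL1, higher on all 6 depletion arrays (0.50 ± 0.056), and BCL7B, lower on all 6 (-0.37 ± 0.047). GALNT17 was at 7.15 and 7.17 in siTET1, 6.98 and 6.96 in siTET2, 6.66 and 6.79 in siTET3, against 7.73 and 7.70 in siNTC, with the largest change of these flanking genes.

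Inside the interval, 9 measured genes were not on the list, with a median change of -0.28. The largest changes were those of LINC00174, a long non-coding RNA between TPST1 and KCTD7 (-1.40 ± 0.091), and LINC03129, between ZNF92 and VKORC1L1 (-1.04 ± 0.086). LINC00174 was at 6.49 and 6.75 in siTET1, 6.86 and 6.66 in siTET2, 6.46 and 6.61 in siTET3, against 7.94 and 8.14 in siNTC. The small nucleolar RNA SNORA22, which guides pseudouridylation, changed by -0.65 ± 0.045 and SNORA15, from an intron of CCT6A, by -0.28 ± 0.082. LINC03006 was above background on the siNTC arrays alone and was at least 1.19-fold lower. SNORA15 was thus lower while its host gene was higher; both small RNAs have related copies elsewhere. LOC441239 had 0.12 ± 0.087. The 4 genes not lower on all depletion arrays were LOC441239, FKBP9P1, LOC401357 and the pseudogene ARAFP2.

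Differences between depletions were tested for all 18418 genes with limma. The question was whether loss of 1 TET enzyme gave other levels of these genes than loss of another. Most listed genes had near-equal levels in the 3 depletions. The rule that chose the genes took a shared decrease of the depletions, which may have favoured genes that differ little between them. The tests below are therefore not fully independent of that rule. Between siTET2 and siTET1, 31 of the 33 genes differed by no more than 0.2 on the log2 scale. The counts were 27 between siTET3 and siTET1 and 24 between siTET3 and siTET2, with standard errors of 0.036 to 0.14. No share of all genes within 0.2 is given, so near-equal levels are not read as particular to the listed genes.

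Between siTET2 and siTET1, 0 of the 33 genes passed at an adjusted p under 0.05 by limma, beside 6.46% of all genes (2.33% higher and 4.13% lower in siTET2). At an unadjusted p under 0.05 there were 7, beside 18.9% of all genes. After quantile normalization 1 gene passed, and in a fit of these 4 arrays alone 5 did. The shares of all genes above belong to the main fit, and none is given for these 2 settings. The highest difference was 0.32 ± 0.14 in SEPTIN14 (adjusted p = 0.219) and the lowest -0.17 ± 0.088 in MRPS17 (adjusted p = 0.323). RABGEF1 had 0.21 ± 0.062, adjusted p = 0.0696. These genes were not shown to be equal by missing the threshold, and the rule that chose them may have favoured few calls.

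Between siTET3 and siTET1, 5 of the 33 passed (15.2%), beside 13.8% of all genes, a similar share. NIPSNAP2, ZNF680 and RABGEF1 were higher in siTET3 (3 of 33, beside 3.82% of all genes), and GUSB and VKORC1L1 were lower (2 of 33, beside 9.94%). NIPSNAP2 was at 10.39 and 10.35 in siTET3, against 10.03 and 9.97 in siTET1 (0.37 ± 0.045, adjusted p = 2.22e-04). This was the largest difference of the list in this comparison and held under each of 15 alternative settings. RABGEF1 was at 8.20 and 8.16 in siTET3, against 7.93 and 7.93 in siTET1 (0.25 ± 0.062, adjusted p = 0.0194). ZNF680 was at 10.39 and 10.42 in siTET3, against 10.15 and 10.29 in siTET1 (0.18 ± 0.051, adjusted p = 0.0304). Both genes were below siNTC in every depletion, so their siTET3 level was the nearer to siNTC. GUSB was at 7.79 and 7.96 in siTET3, against 8.08 and 8.30 in siTET1 (-0.31 ± 0.079, adjusted p = 0.0195). VKORC1L1 was at 9.35 and 9.39 in siTET3, against 9.50 and 9.57 in siTET1 (-0.17 ± 0.045, adjusted p = 0.029), and at -0.09 with its clusters averaged (adjusted p = 0.476, in a range of 0.0178 to 0.476 over the settings). The arrays did not overlap for any of the 5. RABGEF1, ZNF680, GUSB and VKORC1L1 lost the call in 4 to 10 of the 15 settings. Without siTET1 replicate 1 the difference in ZNF680 was 0.12, and without siTET1 replicate 2 that in GUSB was -0.20. The 5 calls were 2 without siTET1 replicate 1, siTET1 replicate 2 or siTET3 replicate 1, and 3 without either siTET2 array.

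Between siTET3 and siTET2, 7 of the 33 passed (21.2%), beside 12.2% of all genes. MRPS17, NIPSNAP2, CCT6A, ZNF680 and ZNF92 were higher in siTET3 (5 of 33, beside 4.94% of all genes), and GUSB and ZNF713 lower (2 of 33, beside 7.24%). NIPSNAP2 was at 10.39 and 10.35 in siTET3, against 9.91 and 9.96 in siTET2 (0.43 ± 0.045, adjusted p = 7.82e-05). Its neighbour MRPS17 was at 7.85 and 8.12 in siTET3, against 7.71 and 7.56 in siTET2 (0.35 ± 0.088, adjusted p = 0.0192), a difference of 0.22 without siTET3 replicate 2. ZNF680 was at 10.39 and 10.42 in siTET3, against 10.13 and 10.06 in siTET2 (0.31 ± 0.051, adjusted p = 0.0016). The differences in NIPSNAP2 and ZNF680 held under all 15 settings. CCT6A was at 11.14 and 11.05 in siTET3, against 10.90 and 10.87 in siTET2 (0.20 ± 0.049, adjusted p = 0.0162). ZNF92 was at 10.61 and 10.58 in siTET3, against 10.46 and 10.39 in siTET2 (0.17 ± 0.049, adjusted p = 0.0415). NIPSNAP2, MRPS17, ZNF680 and ZNF92, which were below siNTC in siTET2, lay nearer to it in siTET3, and CCT6A lay farther above it. GUSB was at 7.79 and 7.96 in siTET3, against 8.20 and 8.25 in siTET2 (-0.35 ± 0.079, adjusted p = 0.0111). ZNF713 was at 6.07 and 6.10 in siTET3, against 6.36 and 6.43 in siTET2 (-0.32 ± 0.093, adjusted p = 0.0421). The groups did not overlap in these 7 genes, and the 5 other than NIPSNAP2 and ZNF680 lost the call in 4 to 8 settings. The 7 calls were 2 without siTET2 replicate 1 or 2, and 3 without siTET3 replicate 1.

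**Figure D4:**
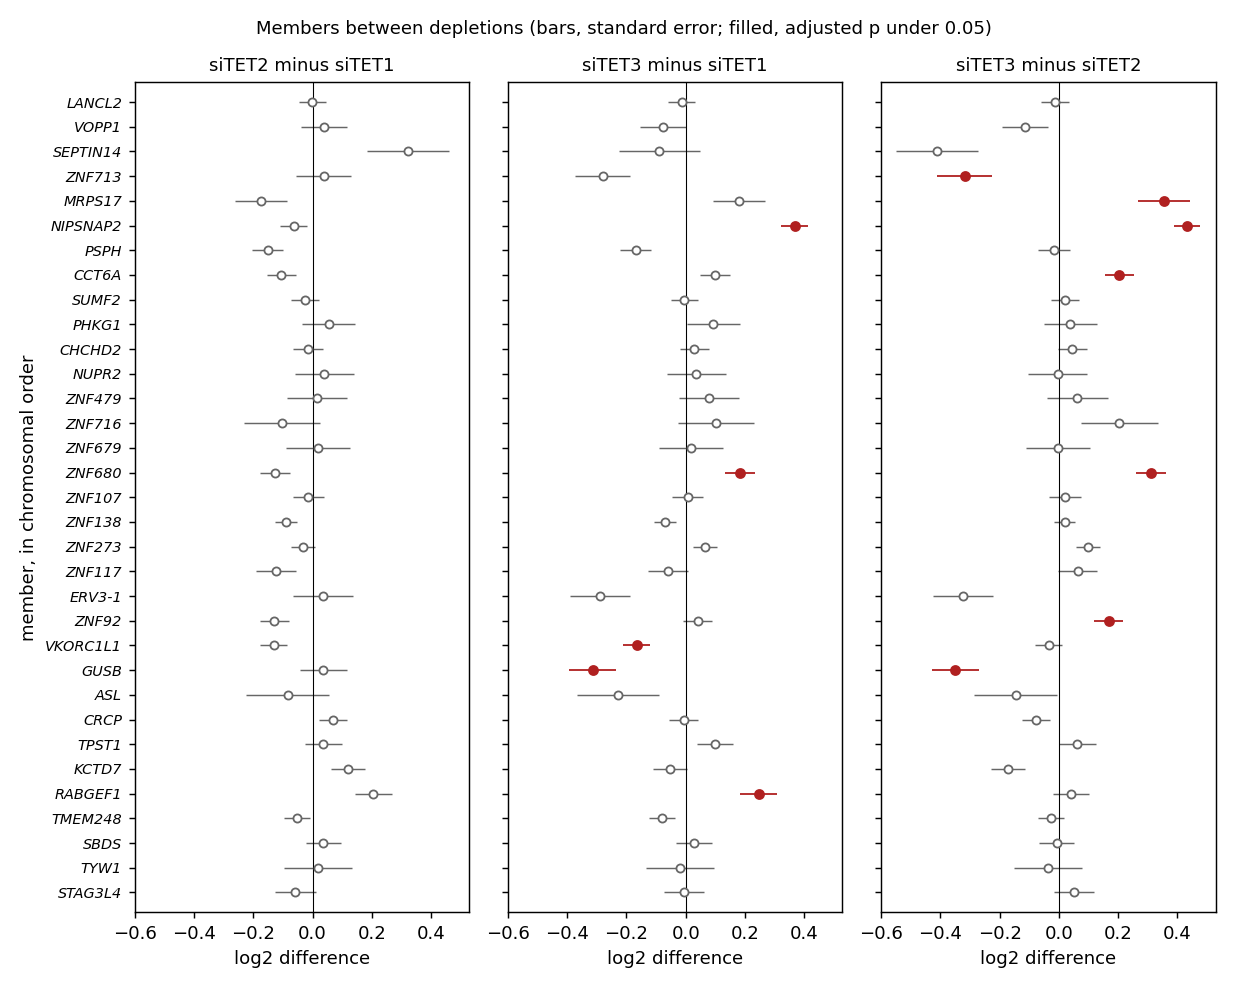
Log2 difference between depletions (horizontal axes, bars for the standard error of the fit) for each of the 33 measured genes in chromosomal order (vertical axis), 1 panel per pair. Filled red points passed at an adjusted p under 0.05, which were 0 for siTET2 minus siTET1, 5 for siTET3 minus siTET1 and 7 for siTET3 minus siTET2, and NIPSNAP2 lay farthest to the right in both siTET3 panels.

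From VKORC1L1 to STAG3L4, the median difference of the 11 genes was 0.04 between siTET2 and siTET1, -0.02 between siTET3 and siTET1 and -0.03 between siTET3 and siTET2. Calls in this stretch were limited to RABGEF1, VKORC1L1 and GUSB. STAG3L4 differed by -0.01 ± 0.068 between siTET3 and siTET1. Outside the list, SNORA22 was at 12.54 and 12.53 in siTET2, against 12.14 and 12.18 in siTET1 (0.38 ± 0.055, adjusted p = 0.00177).

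Related genes on other chromosomes or in other regions of chromosome 7 were set beside the list: those that act with its members, their paralogs (10 measured) and other zinc finger genes of chromosome 7 (21 measured). Unlike the listed genes, these were tested against siNTC. The lists of related genes were drawn up with earlier results of these data known. The shares over all 18418 genes include 5668 not above background on average. Nothing is therefore read from a difference between the related genes and all genes. In the mean of the 3 depletions against siNTC, 57 of 108 measured related genes passed the test, beside 40.7% of all genes. Of these 45 were lower and 12 higher, beside 24.2% lower and 16.5% higher among all genes, and 51 did not pass. Their median was -0.09, beside -0.42 for the listed genes. Required to change at least 1.2-fold as well, 36 passed. The share of all genes under that rule is not given, so the 36 cannot be set against it.

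In the urea cycle, the enzyme before ASL, ASS1, was lower (-0.77 ± 0.044, adjusted p = 2.32e-08), and so was CPS1 (-0.70 ± 0.053, adjusted p = 2.85e-07). Of the 6 measured genes of that list, 3 were lower and 0 higher. Beside this and the lists that follow, 24.2% of all genes were lower and 16.5% higher. The lists are short, and none was tested as a set. In wybutosine synthesis, 3 of 4 were lower, among them the last-step enzyme LCMT2 (-0.83 ± 0.049, adjusted p = 3.33e-08). With SBDS, its target EIF6 (-0.42 ± 0.033, adjusted p = 3.80e-07) and its partner GTPase EFL1 (-0.46 ± 0.060, adjusted p = 3.85e-05) were lower, the only 2 of 6 to pass. For RNA polymerase III, 5 of 9 subunits were lower and 0 higher, such as POLR3K (-0.51 ± 0.032, adjusted p = 5.62e-08). In the vitamin K cycle 2 of 3 were lower, and VKORC1, the paralog of VKORC1L1, was not past the test (0.06 ± 0.035, adjusted p = 0.222).

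The other TRiC subunits moved both ways, beside the higher CCT6A. CCT8 (-0.42 ± 0.054, adjusted p = 3.13e-05) and 2 others of 8 were lower and 1 was higher. Of 24 proteins of the small mitochondrial ribosomal subunit, 13 were lower and 2 higher, with MRPS11 (-0.62 ± 0.034, adjusted p = 1.69e-08) and MRPS33 (-0.70 ± 0.067, adjusted p = 2.28e-06) among the lower. The serine synthesis enzyme before PSPH, PSAT1, was lower (-0.59 ± 0.032, adjusted p = 1.66e-08), in a list with 2 lower and 1 higher of 5. Among 8 lysosomal enzymes set beside GUSB, 3 were lower, HEXA included (-0.54), and 2 higher. Of the 4 phosphorylase kinase genes 1 was lower.

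Paralogs and zinc finger genes elsewhere moved both ways. NIPSNAP1, the paralog of NIPSNAP2, was higher (0.36 ± 0.033, adjusted p = 1.54e-06) and CHCHD10, that of CHCHD2, lower (-0.45 ± 0.046, adjusted p = 3.79e-06), within a list of 10 with 2 higher and 2 lower. Of 21 zinc finger genes in other regions of chromosome 7, 4 were higher and 6 lower, with a median of -0.04. ZNF12 (0.50 ± 0.057, adjusted p = 1.04e-05) and ZNF277 (0.43) were higher and ZNF786 (-0.62 ± 0.052, adjusted p = 6.60e-07) lower. These lists share the siNTC arrays with the listed genes, and the position of a related gene beside other genes that changed was not tested.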

How the data were processed

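RNA of NCCIT cells was profiled per the labels from 250 ng of total RNA on Affymetrix Human Gene 1.0 ST arrays, 2 per group. The deposited table states no scale. Its values, from 3.13 to 14.75 with near-equal array medians, were taken as log2 intensities normalized by the authors, and every fold change and percent rests on this. The submitters' processing notes name Partek. No source used here gives its version, its background correction or how probes were summarized. Of 33297 transcript clusters, 19461 carried 1 gene symbol in the array's annotation and were kept, and a gene with several was represented by the cluster with the highest mean over arrays. That left 18418 genes. Gene order and promoter sequences came from RefSeq (GRCh38.p14). Array medians over all clusters lay between 6.22 and 6.27. The r of the 2 arrays of a group, over genes and so not over independent replicates, was 0.9976 to 0.9989. The number of arrays limits the precision.

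The model had 1 coefficient per group and was fitted with limma (version 3.58.1, R 4.3.3) to the 8 arrays together, by lmFit and eBayes with trend, which left 4 residual beside 8.55 prior degrees of freedom. Tests were two-sided, with Benjamini-Hochberg adjustment over all genes and calls at an adjusted p under 0.05. The script was checked on simulated arrays. The study's methods state no array test. The listed genes, the lists of related genes and the tests were chosen with earlier results of these data known. Values on every array are given for the 12 largest decreases above background and genes with a mean change at or above 0. The same holds for the 3 genes with the highest siNTC level. Genes called between depletions are shown at least on the arrays compared. Up to 6 per comparison were planned, and all 7 are shown for siTET3 against siTET2. The 4 nearest genes outside each end are named, and FIGNL1 and BCL7B were named after their values were seen. Also named are the 6 largest changes among other genes of the interval and up to 3 genes per list of related genes. GALNT17 and LINC00174 were shown by array after their values were seen. The alternatives were quantile normalization, a restriction to genes above background, averaging of clusters per gene, each array left out, values relative to the median gene, the replicate number as a block, no intensity trend, a 1.2-fold minimum and the 4 arrays of a pair alone. Plots were made in Python 3.11.15 (matplotlib 3.10.9).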

Additional observations from a re-analysis of the deposited data

Results flagged for a closer look

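Each value below is a listed gene whose effect differed between 2 depletions by the test of that difference (log2, limma, adjusted over all genes). NIPSNAP2 was higher in siTET3 than in siTET1 by 0.37 and than in siTET2 by 0.43. ZNF680 was higher in siTET3 than in siTET1 by 0.18 and than in siTET2 by 0.31. GUSB differed by -0.31 between siTET3 and siTET1 and by -0.35 between siTET3 and siTET2. In siTET3 against siTET1, RABGEF1 differed by 0.25 and VKORC1L1 by -0.17. In siTET3 against siTET2, MRPS17 differed by 0.35, CCT6A by 0.20, ZNF92 by 0.17 and ZNF713 by -0.32. No group had the 4 arrays needed to look for single arrays far from the others.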

How the results depend on the processing

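No difference between depletions that passed the test was reversed under an alternative, and 29 of the 33 genes kept the sign of their mean change against siNTC throughout. The exceptions were PHKG1, PSPH, SEPTIN14 and ZNF716, in 14 of 392 values. The median change of the listed genes was -0.39 in siTET2, -0.37 in siTET3 and -0.37 in the mean of the depletions after quantile normalization. With genes above background only it was -0.47 in siTET1, -0.65 in siTET2, -0.59 in siTET3 and -0.47 in the mean, since the dim genes drop out. Relative to the median gene it was -0.42 in siTET2. With each array left out it ranged from -0.44 to -0.38 in siTET1, -0.46 to -0.45 in siTET2, -0.43 to -0.36 in siTET3 (-0.36 without siTET3 replicate 1) and -0.45 to -0.42 in the mean. The count of 22 genes lower on all depletion arrays stayed between 21 and 23.

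Calls between depletions moved more. The shares of all genes called belong to the main fit, and none is given for the alternatives. Their counts are therefore not set against the genome. For siTET2 against siTET1 the count was 0, with 1 after quantile normalization and 5 with the 4 arrays alone. For siTET3 against siTET1 the 5 calls became 2 without an intensity trend, 2 with a 1.2-fold minimum and 2 with the 4 arrays alone, and 2 to 6 with each array left out: 2 without siTET1 replicate 1 or 2 or siTET3 replicate 1, and 3 without siTET2 replicate 1 or 2. For siTET3 against siTET2 the 7 calls became 3 without an intensity trend and 2 to 7 with an array left out: 2 without siTET2 replicate 1 or 2 and 3 without siTET3 replicate 1. Where an array was left out, the lone array was assumed to vary like the other groups. Related genes called fell to 36 with the 1.2-fold minimum, against 57, and were 50 to 58 with an array left out. Except where arrays or genes were removed, the cause was not tested. With the replicate number as a block the counts were 0, 6, 8 and 57. Same-numbered arrays of 2 groups deviated together with r of -0.043 to 0.24 over 6 pairs of groups, so the number was not taken as a pairing. Clusters shared with other symbols gave no value for ZNF727 and ZNF736, which had none.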
